A study of Mus musculus with 47 samples.

Results

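The data concern the response of 14 Suv39h1 WT mouse B cell lymphomas to Adriamycin (ADR, doxorubicin, a DNA-damaging drug), split by how much RNA of fibroblast matrix genes changed with treatment. Each lymphoma was measured as an untreated (native) and a 5-day ADR array, 28 of the 47 arrays in all. The lymphomas were ranked by the mean log2 change (ADR minus native) of Col1a1, Col1a2, Col3a1, Fn1, Sparc and Timp2, and the 7 lowest (14 arrays) were set against the 7 highest (14 arrays). The members were therefore chosen on measured values of the same contrast that is described. Responses of the 7 lowest, and their differences from the 7 highest, are given as descriptions with no test. Tests were run only on the 14 lymphomas together, on native levels, and on cultures that did not enter the ranking.

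Fibroblasts lay down the extracellular matrix, and collagens, fibronectin and Sparc are among their most abundant transcripts, whereas B cells make little of them. A DNA-damaged lymphoma cell that is protected from apoptosis can leave the cell cycle for good, a state known as senescence. Such cells lower the machinery of replication and mitosis, raise p53 targets and lysosomal genes, and secrete cytokines, chemokines and matrix proteases.

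All cells were primary lymphoma cells from lymph nodes of Eµ-myc mice, in which Myc is expressed in the B lineage from an immunoglobulin enhancer. Every group, the native one included, had been transduced with a Bcl2 retrovirus (MSCVpuro), had spent 48 h in puromycin and was grown on NIH 3T3 cells, a mouse fibroblast line, that had received 20 Gy. ADR groups received 0.05 µg/ml for 5 days, and 3 µg of total RNA was labelled for each array. The cultures outside the ranking were 5 Suv39h1- lymphomas (native and ADR) and 3 Suv39h1ER cultures, which the labels give as Suv39h1- plus Suv39h1ER (native, ADR, and ADR with 4-hydroxytamoxifen, 4OHT). Numbers such as 1467 are the lymphoma numbers of the labels. Feeder and lymphoma cells are both of mouse origin, and the arrays do not separate their RNA. In such bulk RNA, fewer cells of a type and less RNA per cell cannot be told apart.

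The labelled cell type was checked on the B cell list (20 measured, Cd22 and Syk among them), whose mean log2 level in native cells was 8.91 ± 0.25 (SD, n = 7) in the 7 lowest and 8.78 ± 0.13 (SD, n = 7) in the 7 highest. Array medians of the 28 WT arrays lay between 4.35 and 4.43. Over all 47 arrays the lowest median was 4.07, in an array outside the WT groups, and the second lowest was 4.32. That array was kept in the fit, and its part in the results was not tested. WT lymphomas 2949, 5043, 5766 and 6054 resembled each other: over 200 probe sets that mark a lymphoma, chosen without them, arrays of different lymphomas among these 4 correlated with a median of 0.47 (0.048 to 0.733), against -0.0896 (up to 0.716) between other lymphomas and 0.738 to 0.923 within 1 lymphoma outside the 4. Arrays of 1 lymphoma among the 4 correlated at 0.42 to 0.67, so they were no more alike than some arrays of different lymphomas among the 4. Of the 4, 2949, 5043 and 6054 are among the 7 lowest and 5766 is among the 7 highest. The total counts of persisting genes and of genes without overlap are therefore also given with the 3 averaged into 1. List counts are given in this way where they differ. The limma fit of this alternative averaged all 4, 5766 included, into 1 culture. Promoter shares and counts in other cultures use the lymphomas as labelled. The difference between 3′ and 5′ signal of Gapdh, a sign of RNA quality, changed by 0.20 ± 0.35 (SD, n = 7) in the 7 lowest, reaching 0.93 in 1 lymphoma, and by 0.01 ± 0.05 (SD, n = 7) in the 7 highest. Its part in the results was not tested.

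The mean change of the 6 ranking genes ran from -0.02 in lymphoma 1467 over 0.66 in 5043, 0.74 in 2949, 0.93 in 9584, 1.09 in 1570 and 1.69 in 6054 to 2.12 in 9583. Among the 7 highest it was 2.89 in 7050, 3.26 in 5766, 3.27 in 3769, 3.70 in 2581, 3.94 in 3594, 5.43 in 5560 and 5.79 in 403. The widest step between neighbours lies between 3594 at 3.94 and 5560 at 5.43, within the 7 highest. The members next to the dividing line are 9583 at 2.12 and 7050 at 2.89. The median of the 6 genes, or the mean of 28 other fibroblast markers, put the same 7 lymphomas lowest.

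**Figure D1:**
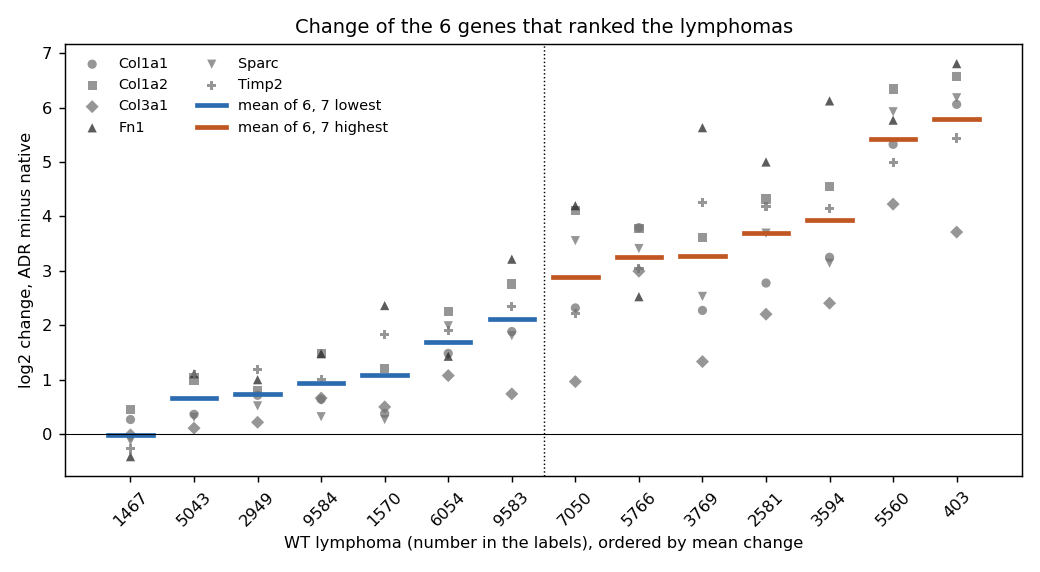
Log2 change (ADR minus native) of each of the 6 ranking genes (grey symbols) and their mean (bars) in the 14 WT lymphomas, ordered by the mean; the dotted line divides the 7 lowest from the 7 highest. Means climb without a break from -0.02 in lymphoma 1467 to 5.79 in lymphoma 403.

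Fn1 (fibronectin) changed by -0.42, 1.43 and 3.21 (lowest, median and highest lymphoma) among the 7 lowest and by 2.52, 5.63 and 6.81 among the 7 highest, so the groups overlap. Col1a2 (a type I collagen chain) changed by 0.45, 1.20 and 2.76 against 3.61, 4.32 and 6.57, with no overlap. Sparc (a matrix glycoprotein) changed by -0.13, 0.32 and 1.99 against 2.53, 3.55 and 6.18, again with no overlap. Timp2, an inhibitor of matrix proteases, had mean changes of 1.30 ± 0.85 (SD, n = 7) and 4.04 ± 1.10 (SD, n = 7). Col1a1 and Col3a1 stood at 0.82 ± 0.62 and 0.47 ± 0.39 in the 7 lowest (SD, n = 7) and at 3.68 ± 1.48 and 2.55 ± 1.19 in the 7 highest (SD, n = 7). The mean level of the 6 genes was 5.51 ± 0.46 before and 6.54 ± 0.81 after ADR in the 7 lowest (SD, n = 7), and 4.93 ± 0.50 before and 8.96 ± 1.21 after ADR in the 7 highest (SD, n = 7). The larger change of the 7 highest thus contains both a lower native and a higher ADR level. Other fibroblast markers behaved alike in kind: their mean change was 0.71 ± 0.44 (range 0.04 to 1.32) and 2.64 ± 0.78 (range 1.85 to 3.82; SD, n = 7 each).

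Native levels of the 2 groups of lymphomas were then compared, to ask whether the lymphomas differed before treatment. Native values are the part that the ranking subtracts, and the 6 ranking genes were left out of this test. Of 18188 genes, 0 (0%) were called with limma at a Benjamini-Hochberg adjusted p under 0.05, the smallest adjusted p was 0.50, and 1806 had an unadjusted p under 0.05. The genes with the smallest p were Hbegf (a growth factor of the EGF family), Tmem45a and Impdh1 (an enzyme of guanine nucleotide synthesis). Their levels were lower in the 7 highest by 0.80 (SE 0.14), 0.74 (SE 0.14) and 0.60 (SE 0.12), and none passed the correction (limma adjusted p = 0.50 for each).

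Over all 14 WT lymphomas, 2925 genes rose (16.1% of 18194) and 2564 fell (14.1%) under ADR (limma, adjusted p under 0.05). A change was said to persist where the gene was called in this test, moved in that direction in 7 of 7 lowest lymphomas, and had a mean change of at least 1 log2 unit in them. On that rule 161 genes (0.885%) persisted as rising and 180 (0.989%) as falling. With the 3 similar lymphomas averaged, the numbers were 218 and 187. Over the genes called in the 14 lymphomas, the median change was 0.36 in the 7 lowest and 0.73 in the 7 highest for rises, and -0.33 and -0.62 for falls. This set includes genes called through the 7 highest, so its medians are a description. Persisting genes were chosen by their change in the 7 lowest, which favours changes there as large as in the 7 highest. For called falls of at least 1 log2 unit over the 14, medians were -1.27 (7 lowest) and -1.55 (7 highest). For called rises of that size they were 0.83 and 2.06. These sets too include genes that reached the size through the 7 highest. Their medians, and the contrast between falls and rises, are therefore a description. Lymphoma 9584 set a limit on the falls: without it, 331 genes persisted as falling.

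**Figure D2:**
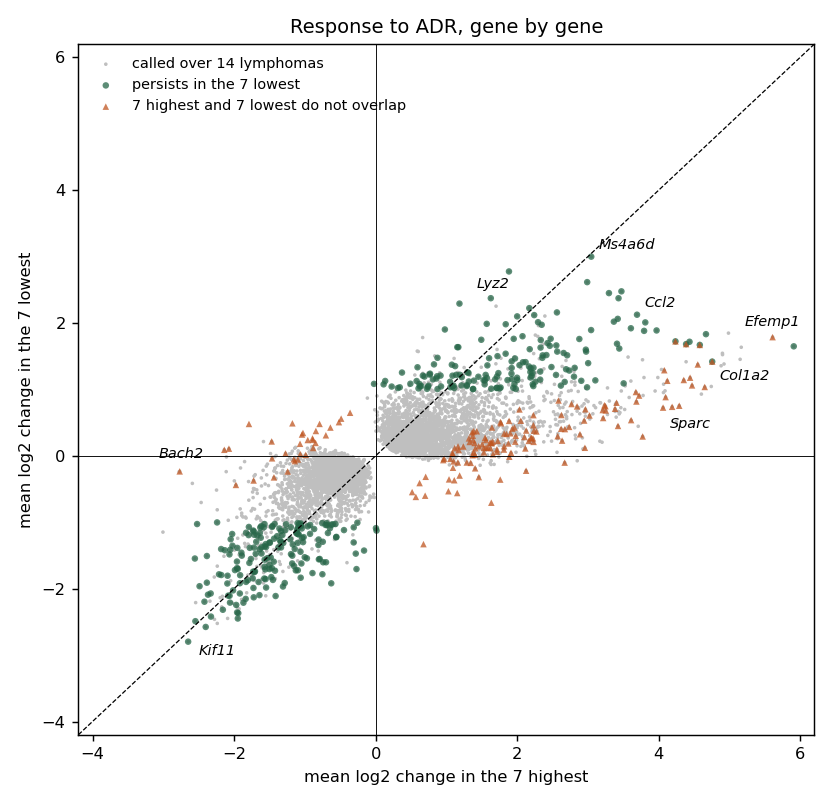
Mean log2 change under ADR in the 7 highest (horizontal) and the 7 lowest (vertical) WT lymphomas, 1 point per gene; grey points were called over all 14, green points persist in the 7 lowest (161 rising, 180 falling), orange triangles do not overlap between the groups (133 above, 32 below), and the dashed line marks equal change. Persisting falls lie around the dashed line, a position favoured by their choice on the change in the 7 lowest.

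The persisting falls with the largest means were Kif11, Ccnb2 and Aurkb, all of the mitosis list. Kif11, the motor that separates the spindle poles, fell by 2.72 on the log2 scale over 14 lymphomas (SE 0.28, limma adjusted p = 1.3e-07). Its changes were -5.31, -3.08 and -0.63 (lowest, median and highest lymphoma) in the 7 lowest and -3.84, -2.52 and -1.72 in the 7 highest. Aurkb, the kinase of the chromosomal passenger complex, changed by -3.98, -2.57 and -0.62 against -3.34, -2.49 and -1.86. The ranges of the 7 highest lie inside those of the 7 lowest for both genes. Cyclins Ccnb2 and Ccna2 had means of -2.58 ± 1.45 and -2.42 ± 1.29 in the 7 lowest and -2.40 ± 0.64 and -2.33 ± 0.63 in the 7 highest (SD, n = 7 each). Bub1 and Ttk, kinases of the spindle checkpoint, stood at -2.45 ± 1.37 and -2.25 ± 1.47 in the 7 lowest and at -1.95 ± 0.77 and -1.97 ± 0.86 in the 7 highest (SD, n = 7 each). Ube2c (which supplies ubiquitin to the anaphase-promoting complex), Cep55 and Racgap1 (cytokinesis) and the kinase Pbk had means between -2.21 and -2.37 in the 7 lowest. Mki67, the proliferation marker Ki-67, fell from 10.87 to 8.67 in mean level in the 7 lowest and from 10.86 to 8.44 in the 7 highest.

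Kif11, Ccnb2 and Ube2c were chosen for display because, of the 10 leading falls, theirs are the promoters that hold both motifs searched, in the RefSeq promoters of GRCm38.p6. Shown are the 200 bases before the annotated start, 5′ to 3′ on the gene's strand, with motifs in capitals on either strand. The motifs searched were CCAAT, the box bound by NF-Y, and TTTGAA or the variant TTCGAA, the core of the cell cycle genes homology region; a match on the opposite strand reads as the reverse complement. Kif11 is at chr19:37376182-37376381 (+ strand), Ccnb2 at chr9:70421555-70421754 (- strand) and Ube2c at chr2:164769729-164769928 (+ strand).
Kif11: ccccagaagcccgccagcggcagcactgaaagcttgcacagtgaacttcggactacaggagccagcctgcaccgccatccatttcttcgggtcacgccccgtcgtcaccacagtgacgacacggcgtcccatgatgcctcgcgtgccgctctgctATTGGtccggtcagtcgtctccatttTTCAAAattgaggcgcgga
Ccnb2: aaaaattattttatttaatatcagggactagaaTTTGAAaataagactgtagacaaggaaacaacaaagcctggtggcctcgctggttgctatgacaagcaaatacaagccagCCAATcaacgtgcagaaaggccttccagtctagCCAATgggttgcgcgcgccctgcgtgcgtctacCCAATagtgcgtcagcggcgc
Ube2c: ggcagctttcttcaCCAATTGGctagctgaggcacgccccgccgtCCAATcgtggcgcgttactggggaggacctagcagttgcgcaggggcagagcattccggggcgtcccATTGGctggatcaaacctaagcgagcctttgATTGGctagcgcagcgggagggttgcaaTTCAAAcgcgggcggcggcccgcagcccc
In Kif11 the capitals begin 45 and 19 bases before the start, and in Ube2c the nearest ones begin 57 and 29 bases before it. Ccnb2 differs in spacing: its TTTGAA begins 167 bases before the start, upstream of CCAAT at 87, 54 and 21. Of the 180 persisting falls, 146 have a promoter in this table; 78 (53.4%) hold CCAAT, 32 (21.9%) hold TTTGAA or TTCGAA, and 28 (19.2%) hold both. Over the 14453 measured genes with a promoter, the shares of the same 200 bases are 31.7%, 10% and 3.28%. Of the other leading falls, Bub1, Ttk and Racgap1 hold CCAAT alone and Cep55 holds neither. Aurkb, Ccna2 and Pbk had no promoter in the set used and could not be searched. A match to these letters is a description of sequence and not a site of binding.

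**Figure D3:**
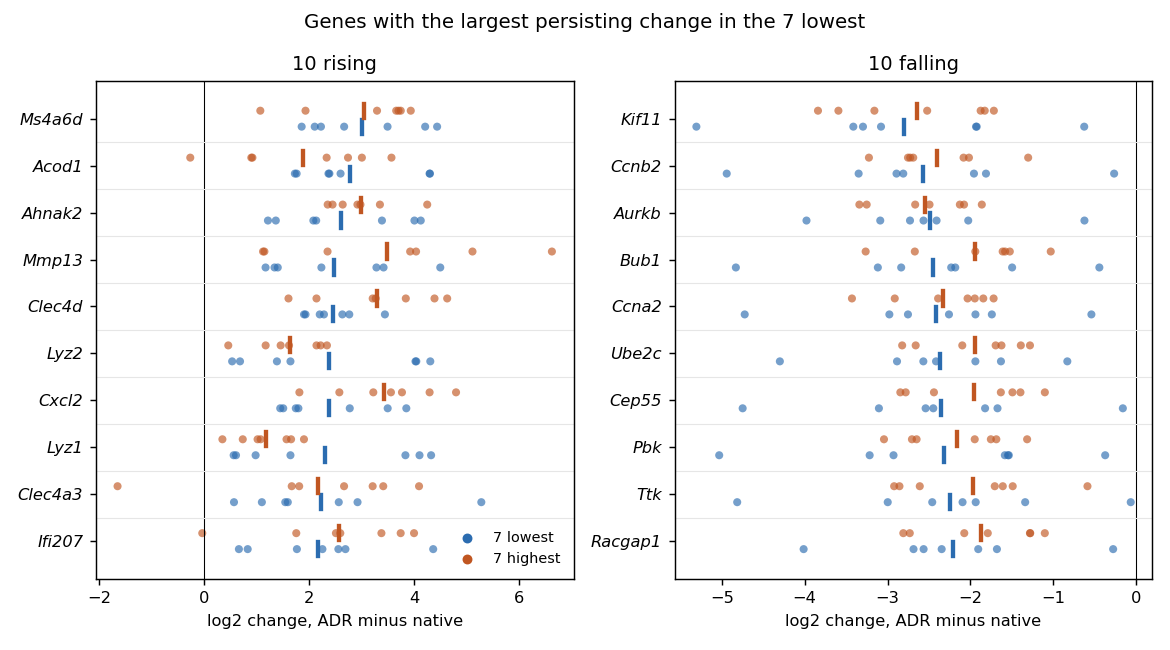
Log2 change (ADR minus native) of the 10 rising and 10 falling genes with the largest mean change among those that persist, 1 point per lymphoma, blue for the 7 lowest and orange for the 7 highest, with the mean of 7 as a vertical bar. For each of the 20 genes the points of the groups overlap, and the blue points lie on 1 side of 0.

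As lists, all 36 measured mitosis genes, 37 of 37 replication genes and 15 of 15 DNA repair genes fell over the 14 lymphomas, beside 14.1% of all genes. In the 7 lowest, 25, 14 and 4 of them persisted as falling, beside 0.989% of all genes, and 25, 14 and 3 with the 3 similar lymphomas averaged. The mean change of the mitosis list was -2.06 ± 1.13 in the 7 lowest (range -3.90 to -0.17) and -1.87 ± 0.67 in the 7 highest (range -2.80 to -1.05; SD, n = 7 each), with a median member at -2.09 and -1.82, beside 0.02 and -0.02 over all genes. With the 3 similar lymphomas averaged, the 7 lowest gave -1.88. Replication stood at -1.08 ± 0.62 and -1.37 ± 0.45, and DNA repair at -1.15 ± 0.63 and -1.41 ± 0.44 (SD, n = 7 each). Plk1 (a mitotic kinase) had a mean of -2.11 ± 0.82 in the 7 lowest and -2.08 ± 0.58 in the 7 highest (SD, n = 7 each). Pola1 (DNA polymerase alpha) and Fancd2 (crosslink repair) were at -1.79 ± 1.08 and -1.80 ± 0.99 in the 7 lowest and at -2.18 ± 0.77 and -1.91 ± 0.68 in the 7 highest (SD, n = 7 each). Over the mean of their probe sets, Pola1, Fancd2, Chek1 and Ttk fell by 0.99, 1.03, 0.85 and 1.31 over the 14 lymphomas, in place of 1.99, 1.86, 1.58 and 2.11. Chek1, a checkpoint kinase, fell over the 14 lymphomas and did not persist by the rule, since 1 of the 7 lowest was at 0.08. Hmgb2 and Lmnb1, chromatin and lamina genes whose loss accompanies senescence, persisted as falling: Hmgb2 had -1.78 ± 1.06 and -2.21 ± 0.41 (SD, n = 7 each; 7 lowest first), and Lmnb1 changed by -2.70, -0.86 and -0.24 against -3.18, -2.15 and -1.74.

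The persisting rises with the largest means were Ms4a6d, Acod1 and Ahnak2. Ms4a6d, a membrane protein of macrophages, had native log2 levels of 4.21, 5.19 and 8.27 (lowest, median, highest) and ADR levels of 7.42, 8.94 and 10.13 in the 7 lowest. Its mean change was 3.00 ± 1.05 in the 7 lowest and 3.05 ± 1.10 in the 7 highest (SD, n = 7 each), and it rose by 3.02 over all 14 (SE 0.34, limma adjusted p = 3.9e-07; 1.96 over the mean of its probe sets). Acod1, which makes itaconate in activated macrophages, changed by 1.73, 2.38 and 4.30 in the 7 lowest and by -0.27, 2.33 and 3.57 in the 7 highest. Lyz2 and Lyz1, the lysozymes, had means of 2.37 ± 1.68 and 2.29 ± 1.72 in the 7 lowest and 1.63 ± 0.67 and 1.18 ± 0.55 in the 7 highest (SD, n = 7 each). They are near-identical copies, so their probe sets may read each other. The C-type lectin receptors Clec4d and Clec4a3 had means of 2.45 ± 0.54 and 2.22 ± 1.57 in the 7 lowest (SD, n = 7), and Adgre1, a surface marker of macrophages, had 2.12 ± 0.88 beside 2.24 ± 1.30 in the 7 highest (SD, n = 7 each). The groups overlap for each of these genes.

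Macrophage and monocyte markers as a list moved with these rises. Of 19 measured, 14 rose over the 14 lymphomas (beside 16.1% of all genes) and 8 persisted (beside 0.885%), or 11 with the 3 similar lymphomas averaged. Their mean level in the 7 lowest ran from 5.23 to 7.72 in native and from 6.35 to 8.86 in ADR arrays, and in the 7 highest from 5.52 to 7.97 and from 7.93 to 8.71. Lyz2 stood at 6.24 to 12.37 in the native arrays of the 7 lowest and Adgre1 at 4.20 to 8.45. With the 3 similar lymphomas averaged, the list mean in the 7 lowest was 1.20 in place of 1.15 ± 0.61 (SD, n = 7), beside 1.68 ± 0.87 (SD, n = 7) in the 7 highest. Of 10 neutrophil markers, 4 rose and all of these persisted (Lcn2, Mmp8, Mmp9 and S100a8), while the median member of the list was at 0.03 in the 7 lowest and 0.19 in the 7 highest. Among the 4 were Lcn2 (a siderophore-binding protein) at 2.06 ± 0.61 and the protease Mmp8 at 1.69 ± 1.35 (SD, n = 7). T and NK cell markers had a mean change of 0.03 ± 0.17 in the 7 lowest and endothelial markers one of -0.10 ± 0.07 (SD, n = 7 each), in which Egfl7 persisted as falling. The part of myeloid cells in the persisting rises was not tested.

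Of 42 measured members of the secretory list, 28 rose over the 14 lymphomas and 11 persisted in the 7 lowest, beside 16.1% and 0.885% of all genes. The same count persisted when the 3 similar lymphomas were averaged. Cxcl2, a neutrophil-attracting chemokine, changed by 1.45, 1.79 and 3.85 in the 7 lowest and by 1.81, 3.56 and 4.80 in the 7 highest. Ccl2, which attracts monocytes, changed by 0.44, 2.23 and 4.06 against 1.46, 4.41 and 4.84. The collagenase Mmp13 had means of 2.48 ± 1.28 and 3.47 ± 2.06 (SD, n = 7 each; 7 lowest first). All 3 overlap between the groups. The list as a whole had a mean change of 0.70 ± 0.32 (range 0.31 to 1.20) in the 7 lowest and 1.54 ± 0.38 (range 0.98 to 2.03) in the 7 highest (SD, n = 7 each). Cxcl2 is shown as the one of the 10 leading rises for which a promoter in the table held a match to the kappaB consensus, in capitals, at chr5:90903699-90903898 (+ strand, RefSeq, GRCm38.p6).
Cxcl2: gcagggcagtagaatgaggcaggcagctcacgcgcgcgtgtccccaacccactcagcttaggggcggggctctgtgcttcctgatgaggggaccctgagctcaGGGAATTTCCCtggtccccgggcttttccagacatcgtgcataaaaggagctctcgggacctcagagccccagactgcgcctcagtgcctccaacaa
Among persisting rises with a promoter in the table, 11 of 127 (8.66%) held that consensus in these 200 bases, beside 3.51% of measured genes.

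Further persisting rises came from several roles. Ahnak2, a large scaffold protein, had a mean change of 2.61 ± 1.22 and 2.99 ± 0.65 (SD, n = 7 each; 7 lowest first) and was higher under ADR in 14 of 14 lymphomas. Cd80, a costimulatory ligand for T cells that p53 can raise, had 1.64 ± 0.91 and 1.15 ± 0.59, and Syk, the kinase downstream of the B cell receptor, had 1.08 ± 0.66 and 0.62 ± 0.50 (SD, n = 7 each). Over the mean of its probe sets, Syk was not called (0.21, limma adjusted p = 0.13). The next brightest Cd80 probe set had means of 0.23 and 0.61 and was up in 4 of 7 lowest, so the value of Cd80 rests on 1 probe set. Ifi207 and Ifit1, interferon-stimulated genes, had 2.16 ± 1.26 and 1.76 ± 1.12 in the 7 lowest (SD, n = 7). Of the 29 interferon-stimulated genes 25 rose and 2 persisted (Ifit1 and Zbp1), beside 16.1% and 0.885% of all genes, and 5 persisted with the 3 similar lymphomas averaged. The list mean was 0.81 ± 0.74 (range -0.24 to 1.63) in the 7 lowest and 1.20 ± 0.76 (range -0.30 to 2.24) in the 7 highest (SD, n = 7 each). The persisting falls also held Cd22, an inhibitory B cell receptor, at -1.14 ± 0.68 and -1.72 ± 0.45, and Stard4, a cholesterol carrier, at -1.16 ± 0.43 and -1.63 ± 0.65 (SD, n = 7 each; 7 lowest first).

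Of 29 p53 targets, 20 rose and 2 fell over the 14 lymphomas, beside 16.1% and 14.1% of all genes. In the 7 lowest, 3 of 29 were up in 7 of 7, beside 1214 of 18194 genes, and only Cd80 persisted, beside 0.885% of all genes. With the 3 similar lymphomas averaged, where fewer values had to agree, 7 persisted, and the list mean in the 7 lowest was 0.73. Mdm2, the ubiquitin ligase that limits p53, changed by -0.52, 0.95 and 2.82 in the 7 lowest and by 0.77, 1.44 and 2.26 in the 7 highest. Cdkn1a (p21), the cell cycle inhibitor, changed by -0.03, 0.84 and 2.54 against 0.22, 1.10 and 2.62. The list means were 0.54 ± 0.57 and 0.66 ± 0.33 (SD, n = 7 each; 7 lowest first), with a median member at 0.62 and 0.44. Lysosomal genes rose in 25 of 27, beside 16.1% of all genes, but their mean was 0.51 ± 0.21 in the 7 lowest and 1.14 ± 0.26 in the 7 highest (SD, n = 7 each), and the ranges of the lymphomas (0.16 to 0.78 and 0.83 to 1.56) do not overlap. Lamp1, a lysosomal membrane protein, had 0.84 ± 0.16 and 1.36 ± 0.27, and the autophagy receptor Sqstm1 had 0.98 ± 0.30 and 1.60 ± 0.51 (SD, n = 7 each). Both were up in 7 of 7 lowest, under the size of 1 that the rule asks for. Rela, a subunit of NF-kB, was up in 14 of 14 lymphomas with means of 0.60 ± 0.15 and 0.59 ± 0.21 (SD, n = 7 each).

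**Figure D4:**
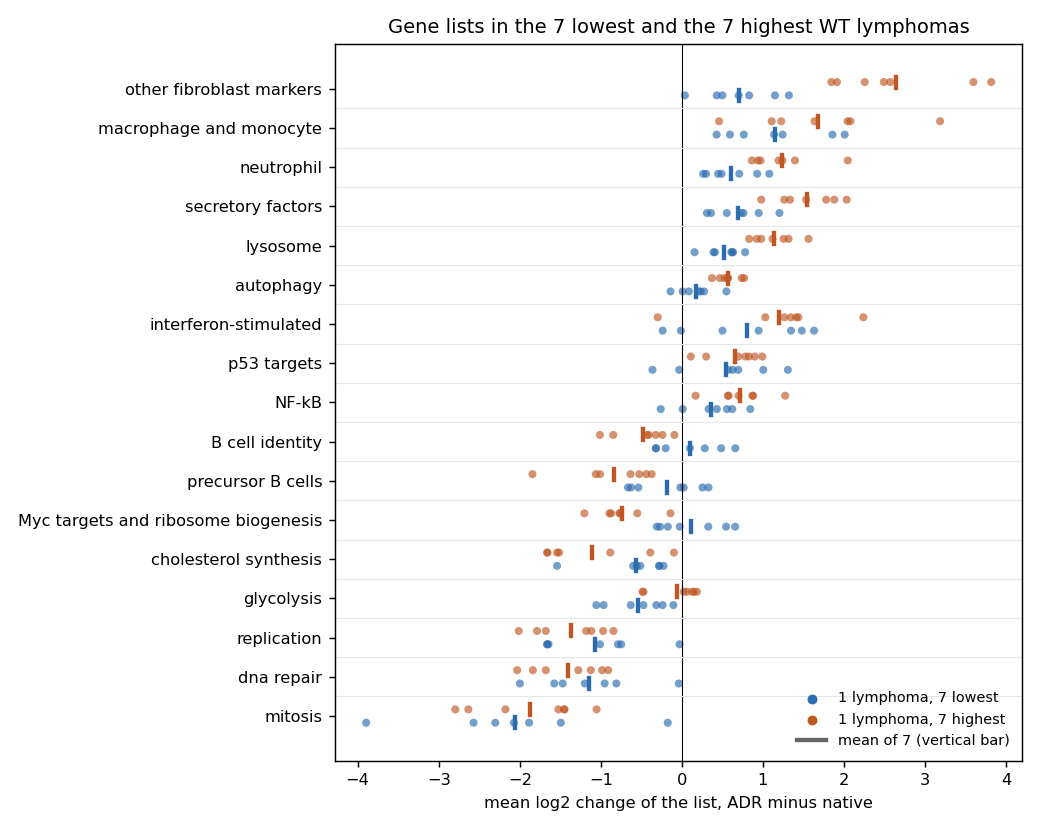
Mean log2 change (ADR minus native) of 17 gene lists, 1 point per lymphoma, blue for the 7 lowest and orange for the 7 highest, with the mean of 7 as a vertical bar. Mitosis, replication and DNA repair lie below 0 in both groups, while the other fibroblast markers and the lysosome list do not overlap between them.

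The groups of lymphomas were then set against each other gene by gene. The values of all 7 highest lay above those of all 7 lowest, with means at least 1 apart, for 133 genes (0.731%), and below them for 32 genes (0.176%). With the 3 similar lymphomas averaged, these counts were 215 and 53. Without 5766 they were 250 and 128, and without 6054 they were 202 and 55. Leaving out 7050 gave 234 above, and leaving out 9584 or 1570 gave 54 or 64 below. Of the 161 persisting rises 4 were also in the first set (Col1a2, Kitl, Grb10 and Hmga2, named after their values were seen), and of the 180 persisting falls 0 were in either.

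Genes above in the 7 highest were led by Efemp1, Nid1 and Cavin2. Efemp1 (fibulin-3) changed by -0.12, 2.21 and 3.56 in the 7 lowest and by 4.17, 5.09 and 8.46 in the 7 highest. Nid1, a basement membrane protein, changed by -1.01, 0.79 and 2.52 against 3.38, 4.71 and 6.05. Thbs1 (thrombospondin-1) and Pcolce (an enhancer of procollagen processing) had means of 0.74 ± 0.64 and 1.06 ± 0.92 against 4.19 ± 1.08 and 4.47 ± 1.67 (SD, n = 7 each). Cavin2 and Cav1, components of caveolae, had 0.75 ± 0.83 and 1.18 ± 0.93 against 4.29 ± 1.38 and 4.44 ± 0.86 (SD, n = 7 each). Ackr3, a scavenging chemokine receptor, had ADR levels between 2.87 and 3.88 in the 7 lowest and a mean change of 0.29 ± 0.40, against 3.77 ± 1.37 in the 7 highest (SD, n = 7 each). Of the 28 other fibroblast markers 25 rose over the 14 lymphomas, 3 persisted in the 7 lowest, and 8 did not overlap between the groups, beside 16.1%, 0.885% and 0.731% of all genes. Over the mean of their probe sets, Nid1 rose by 1.46 in place of 2.84 over the 14 lymphomas, and Col1a2 and Col3a1 by 2.04 and 0.82 in place of 3.09 and 1.51. These markers belong to the same cell type as the ranking genes, so their difference adds no separate support to the ranking.

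Genes below in the 7 highest were led by Bach2, Niban3 and Bcl11a. The 32 are 0.176% of all genes. They held 1 of 13 precursor B cell genes (Bcl7a) and 2 of 31 Myc target and ribosome biogenesis genes (Dkc1 and Wdr12, the latter named after its values were seen). They held 0 of 20 B cell identity genes, which at so small a share over all genes is no result about that list. Bach2, a transcription repressor of mature B cells, changed by -1.28, -0.39 and 1.24 in the 7 lowest and by -5.36, -2.25 and -1.56 in the 7 highest, and its mean level under ADR was 7.82 and 6.01. Bcl11a, a factor needed for B cell development, changed by -1.17, -0.06 and 1.78 against -3.98, -1.90 and -1.39. Niban3 ranged from 0.29 to 0.70 in the 7 lowest and from -2.89 to 0.27 in the 7 highest; it was not called over the 14 (limma adjusted p = 0.11). Aff3 and Klhl14, both expressed in B cells, had means of -0.44 ± 0.51 and -0.04 ± 0.28 against -1.97 ± 0.79 and -1.46 ± 0.40 (SD, n = 7 each). Dkc1, the pseudouridine synthase of nucleoli, had 0.22 ± 0.61 against -1.47 ± 0.77 (SD, n = 7 each). Native levels of Bach2, Bcl11a, Niban3 and Dkc1 were higher in the 7 highest by 0.72, 0.66, 1.01 and 0.79, none past the correction (limma adjusted p = 0.50 for each). These genes were chosen on a change that subtracts the native level. That choice favours a higher native level in the 7 highest, so the differences are a description.

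As lists, B cell identity genes had a mean change of 0.10 ± 0.40 in the 7 lowest and -0.48 ± 0.33 in the 7 highest, and precursor B cell genes had -0.18 ± 0.42 and -0.84 ± 0.52 (SD, n = 7 each). Averaging the 3 similar lymphomas gave 0.25 and -0.10 in the 7 lowest. Cd22 alone of the B cell list persisted as falling, and did not with that average. Vpreb3, a chaperone of the pre-B cell receptor, changed by -2.99, -0.72 and 0.44 against -5.32, -3.39 and -1.01. Myc targets and ribosome biogenesis genes, of which 14 of 31 fell over the 14 lymphomas (beside 14.1% of all genes), had 0.11 ± 0.40 (0.04 with that average) in the 7 lowest and -0.74 ± 0.33 in the 7 highest (SD, n = 7 each), and 30 of 31 had the lower mean in the 7 highest, beside 9878 of 18194 genes. Fbl (fibrillarin) changed by -0.55, -0.29 and 0.37 against -1.72, -0.95 and -0.62. Myc itself changed by -0.74, -0.26 and 0.29 against -2.43, -1.39 and -0.31, and whether its probe set reads the transgene was not tested. Bcl2, the introduced survival gene, had -0.99 ± 0.71 and -0.88 ± 0.68 (SD, n = 7 each); over the mean of its probe sets it was not called (-0.10, limma adjusted p = 0.61). The B cell list was lowest in lymphomas 5560 (-1.01) and 403 (-0.85), which had the largest changes of the 6 ranking genes. The part of a changed share of lymphoma RNA was not tested.

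Cholesterol synthesis genes fell in 13 of 16 over the 14 lymphomas, beside 14.1% of all genes, and had -0.57 ± 0.45 and -1.11 ± 0.65, with Sqle (squalene epoxidase) at -0.73 ± 0.49 and -1.29 ± 0.55 (SD, n = 7 each; 7 lowest first). Glycolysis genes had -0.54 ± 0.36 and -0.06 ± 0.29 (SD, n = 7 each), and Aldoc (aldolase C) and Pfkp (phosphofructokinase) persisted as falling at -1.66 ± 0.95 and -1.03 ± 0.48 in the 7 lowest (SD, n = 7). Averaged over its probe sets, Aldoc fell by 0.92 in place of 1.41 over the 14 lymphomas, and Aff3 by 0.78 in place of 1.21. Antigen presentation genes had 0.03 ± 0.55 and -0.01 ± 0.38 (SD, n = 7 each).

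Single lymphomas among the 7 lowest varied widely. Lymphoma 1467, with no net change of the 6 ranking genes (-0.02) or of the other fibroblast markers (0.04), had a mitosis list change of -1.89, a macrophage list change of 1.86 and a median of 1.61 over the 161 persisting rises. The 161 were chosen to rise in each of the 7 lowest, so a positive median in any of these lymphomas was fixed in advance. Lymphoma 2949 had the deepest mitosis change (-3.90), with -0.36 for p53 targets and 0.76 for the persisting rises. Lymphoma 9584 had the smallest (-0.17), while its p53 targets stood at 0.70 and its interferon-stimulated genes at 1.63. Of the 180 persisting falls, 30 reached a size of 1 in 9584, against 130 to 158 in the other 6 lymphomas. The mitosis change was thus not ordered by the ranking within the 7 lowest.

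Cultures that did not enter the ranking were used to test the same genes. The labels give the number 5043 to a WT lymphoma of the 7 lowest and to a Suv39h1ER culture, and 4936 to a Suv39h1- lymphoma and a Suv39h1ER culture. They were treated as different cultures, and whether they share an origin was not tested. In the 5 Suv39h1- lymphomas, 2 genes (0.011%) were called with limma (adjusted p under 0.05; 1885 at an unadjusted p under 0.05), both falling (4930555B11Rik and Prr32, named after their values were seen), and 0 of the persisting genes were among them. Of the 161 persisting rises 148 (91.9%) had a positive estimate there, with a median of 0.56, and of the 180 persisting falls 180 had a negative one, with a median of -0.51. Over all genes 41.8% had a positive and 58.2% a negative estimate, with a median of -0.04. Few moved the same way in each of the 5 lymphomas: 26 persisting rises (16.1%) were up and 15 persisting falls (8.33%) were down in all 5, beside 3.42% and 5.19% of all genes. In lymphoma 4936 the mitosis list changed by 0.77, against -1.43 to -0.70 in the other 4. In the 3 Suv39h1ER cultures under ADR, 16 genes rose (0.0879%) and 7 fell (0.0385%); 10 persisting rises (6.21%) rose, and 0 persisting falls fell. With ADR and 4OHT, 251 rose (1.38%) and 286 fell (1.57%), among them 29 persisting rises (18%) and 36 persisting falls (20%). The medians of the persisting falls were -0.47 under ADR and -1.10 with 4OHT, and those of the persisting rises were 1.03 and 0.96. Counts in 3 cultures rest on single ones: without culture 4936, 4 genes were called under ADR and 90 with 4OHT, without 5043 the counts were 109 and 162, and without the remaining culture they were 44 and 326. Both Suv39h1ER comparisons share their native arrays, so they are given side by side and their difference was not tested.

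**Figure D5:**
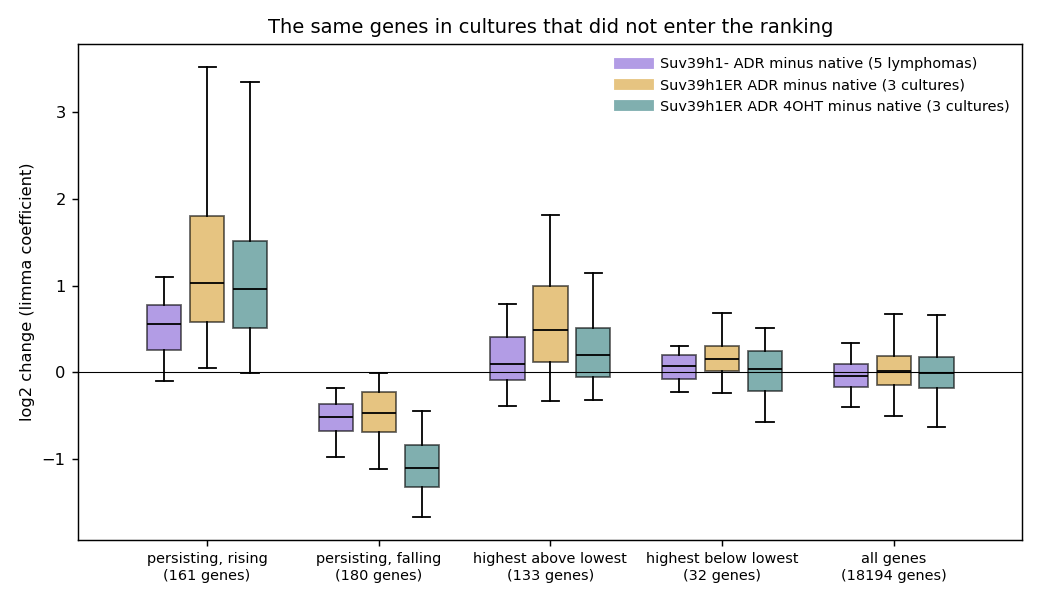
Estimated log2 change in cultures outside the ranking, for genes that persist in the 7 lowest, genes that do not overlap between the groups, and all genes; boxes span the quartiles with the median as a line, and whiskers run from the 5th to the 95th percentile of genes. Persisting rises have medians of 0.56, 1.03 and 0.96, and persisting falls of -0.51, -0.47 and -1.10.

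Lyz2 rose by 5.38 (SE 0.81) under ADR and by 5.57 (SE 0.81) with ADR and 4OHT in the 3 Suv39h1ER cultures, each being up (limma adjusted p = 0.003 and 8.4e-04). Mmp13 rose by 4.77 and 6.07 (limma adjusted p = 0.0088 and 3.0e-04) and Cxcl2 by 4.48 and 3.34 (limma adjusted p = 0.0088 and 0.017), in 3 of 3 cultures each time. These p-values use 1 spread pooled over all cultures and do not measure how alike the 3 cultures were. Among the leading falls, Aurkb fell by 1.67 with ADR and 4OHT (limma adjusted p = 0.045; 3 of 3 cultures lower), and its estimate under ADR alone was -0.62 (limma adjusted p = 0.64). The 133 genes above in the 7 highest had medians of 0.10, 0.49 and 0.21 in the Suv39h1-, Suv39h1ER ADR and Suv39h1ER ADR 4OHT comparisons, with 0 called in each. Medians over all genes were -0.04, 0.01 and -0.01. Of all genes, 0.011% were called in the Suv39h1- comparison, and 0.0879% rose and 0.0385% fell under Suv39h1ER ADR. At such shares 0 called is no result about the 133 genes. With 4OHT the shares were 1.38% and 1.57%. In the same cultures the 6 ranking genes changed by -0.13 to 0.52, by 1.13 to 3.23 and by 0.29 to 1.66, and macrophage markers by -0.14 to 0.82, by 0.71 to 2.66 and by 0.96 to 1.33. Their part in these values was not tested. The labels name WT cells under ADR and Suv39h1ER cells with ADR and 4OHT senescent.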

How the data were processed

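Gene expression was measured on 47 arrays, 28 of them from 14 WT lymphomas. The values are log2 intensities deposited by the authors, made with RMA in oligo under R 3.5.0, per the submitters' processing notes; annotation and filters are not given in the sources used here. The table holds 45101 probe sets: 34958 carry 1 gene symbol, 932 several and 9211 are unnamed here, and 34754 symbols were updated through their Entrez ID. The brightest probe set over the 47 arrays stood for each gene, which gave 18194 genes. Probe sets naming Suv39h1 and Trp53 are not analysed here. The number of arrays limits the precision.

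Comparisons with native cells came from 1 limma fit (limma 3.58.1, R 4.3.3, two-sided) over 47 arrays, with 22 cultures as a fixed block and 4 treatment terms. Native levels were fitted over 14 arrays. P-values were adjusted by the Benjamini-Hochberg method over all genes and called under 0.05. The pairing comes from the series' design text, which describes matched samples; arrays of 1 culture deviated together (correlation over 0.1) in 10 of 14 WT, 5 of 5 Suv39h1-, 1 of 3 Suv39h1ER ADR and 0 of 3 Suv39h1ER ADR 4OHT pairs. P-values rest on 1 spread per gene, pooled over all cultures of a fit. They do not measure how alike the cultures of 1 group were.

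Genes named are the 6 ranking genes, the 10 rising and 10 falling genes with the largest persisting mean change, up to 8 genes in each direction with the largest difference between groups that do not overlap, up to 3 genes of each list with the smallest p over 14 lymphomas, the 3 with the smallest p in native cells, and Myc, Bcl2, Cdkn1a, Cdkn2a, Mki67 and Lmnb1. The members and the 26 lists (538 of 581 genes measured) were chosen with earlier results of these data known. Scripts were tested on simulated data and used Python 3.11.15, pandas 2.3.3, numpy 2.4.6 and matplotlib 3.10.9. Alternatives covered the block, the arrays fitted, probe set choice, dim genes, the ranking, the thresholds, single lymphomas and lymphomas that resemble each other.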

Additional observations from a re-analysis of the deposited data

Results flagged for a closer look

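Of 290 groups of 7 values (lists and named genes in the 7 lowest or the 7 highest WT lymphomas), 17 held a lymphoma far from the others by Dixon's criterion, and chance flags about 1 in 20 groups. No explanation was tested.

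Among the 7 lowest, lymphoma 1467 stood apart for Lox, a collagen crosslinking enzyme, at -0.55 (the others lay between 1.29 and 2.65), for Bcl2l1, a survival gene, at -0.58 (0.35 to 0.93) and for the endothelium list at 0.033 (-0.17 to -0.092). Lymphoma 1570 stood apart for the cholesterol synthesis list at -1.54 (-0.60 to -0.23) and the Bcl2 family list at 0.41 (-0.04 to 0.15). Lymphoma 9584 was low for Xbp1, a plasma cell and stress regulator, at -0.63 (0.28 to 0.85), and for the granzyme Gzma at -0.30 (0.08 to 0.32). Lymphoma 5043 was high for the stress factor Atf3 at 2.42 (0.22 to 0.91), and lymphoma 6054 for the endothelial gene Vwf at 1.44 (-0.44 to 0.12).

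Among the 7 highest, lymphoma 5560 had the deepest changes of 4 genes: Bach2 at -5.36 (-3.09 to -1.56), Bcl11a at -3.98 (-2.31 to -1.39), Fbl at -1.72 (-1.05 to -0.62) and H2-Ob, an antigen presentation gene, at -4.40 (-1.78 to -1.01). Lymphoma 403 was low for Clec4a3 at -1.65 (1.67 to 4.09) and lymphoma 7050 for Gzma at -0.12 (0.14 to 0.32). Lymphoma 2581 was high for Egfl7 at 0.13 (-1.76 to -0.97), and lymphoma 5766 for Impdh1 at 1.17 (0.06 to 0.20).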

How the results depend on the processing

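The WT count of 5489 called genes stayed between 4614 and 5694 under every alternative run, and the native comparison called 0 genes in each. Without the replicate block, WT ADR gave 4656, Suv39h1- ADR 11 (in place of 2), Suv39h1ER ADR 2 (23) and Suv39h1ER ADR 4OHT 267 (537). Leaving out 1 culture at a time gave 0 to 12, 4 to 109 and 90 to 326 for the last 3. Suv39h1- ADR called 0 among the brighter genes and 1 with the similar lymphomas 7890 and 9250 averaged, an alternative chosen after seeing the data, as were the other averages of similar lymphomas and the left-out lymphomas of the group comparison.

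Persisting rises (161) numbered 103 over the mean of probe sets, 576 at 0.5 log2 unit and 147 to 215 without 1 lymphoma. Persisting falls (180) numbered 465 at 0.5 log2 unit, 291 with 6 of 7 lymphomas and 173 to 331 without 1 lymphoma. Genes above in the 7 highest (133) numbered 64 among the brighter genes, 608 for 5 against 5, 215 with similar lymphomas averaged and 127 to 250 without 1 lymphoma. Genes below (32) numbered 17 over the mean of probe sets, 227 for 5 against 5, 53 with similar lymphomas averaged, 171 at any size and 22 to 128 without 1 lymphoma. Fewer lymphomas make groups without overlap, and agreement of all the lowest, easier to reach. For other moves the cause was not tested.

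Of the named genes, Impdh1 (0.00) and Cdkn2a (0.01) changed sign over the 14 lymphomas, neither called: Impdh1 was -0.026 with similar lymphomas averaged and -0.086 to 0.063 without 1 lymphoma, and Cdkn2a was -0.051 to 0.066 without 1 lymphoma. Limits: the arrays cannot separate feeder from lymphoma RNA, and the comparison of both groups of 7 is a description.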
